A study of Mus musculus with 2 samples.

Results

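The genes described here encode the motile cilium axoneme, and they were taken from the feature table by name alone, as every symbol that begins with Dnah, Dnaic, Dnai, Dnali, Cfap, Rsph, Drc or Tekt followed by a digit. The rule found 68 of 32285 genes. Their unique molecular identifiers (UMIs, each a counted RNA molecule) were summed in ciliated cells and in all other cells of a scRNA-Seq experiment on mouse lung. A cell was called ciliated if it held at least 10 UMIs of 6 marker genes (Foxj1, Tmem212, Ccdc153, Dynlrb2, Rsph1 and 1110017D15Rik) and at least 3000 UMIs in all. Rsph1 is both a marker and one of the 68 genes, so its level in ciliated cells is fixed in part by the choice of cells.

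The experiment compared lungs of Cebpa ΔSftpc mice (Sftpc-CreER+ Cebpa fl/fl, labelled KO) with those of Cebpa fl/fl mice that carry the same floxed allele (labelled FF). Tamoxifen was given as 5 daily injections of 75 mg/kg, and lungs were taken 26 weeks after the first. For analyses later than 3 months the methods add another, weekly round of tamoxifen. Mice were 3 months old unless otherwise indicated and of mixed background, and 3 mice per genotype went into 1 library, so the genotypes have no replicates and no test between them was possible. Sftpc drives the recombinase in type 2 alveolar epithelial (AT2) cells, so ciliated cells are not the cells in which the deletion was aimed. The labels speak of sorting for live cells and the methods of whole-lung suspensions, which leaves the gate before loading unclear.

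A motile cilium is moved by dynein motors that slide the paired microtubules of the axoneme against each other. Outer arms supply much of the force, inner arms shape the bend, and radial spokes, the central pair and the nexin-dynein regulatory complex set the timing between them. In the lung these cilia stand on multiciliated cells of the airway epithelium and clear mucus, and inherited loss of many of these genes causes primary ciliary dyskinesia.

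The FF library held 69200420 UMIs in 11721 barcodes and the KO library 64697396 in 13373. After the filter on genes and mitochondrial counts, 210 of 11487 FF cells were ciliated (1.83%, 95% Clopper-Pearson interval 1.59 to 2.09) and 53 of 13238 KO cells were (0.400%, 0.300 to 0.523). All 10 ciliated markers that are neither in the gate nor among the 68 genes had UMIs in the ciliated cells of both libraries, from Tppp3 at 2496 and 2023 counts per 1000000 (CPM) in FF and KO to Odf3b at 292 and 245 CPM. The ciliated cells were shallower in the KO library, with a median of 12188 UMIs against 16776.5. A further 4 FF and 47 KO cells held 10 or more marker UMIs but fewer than 3000 UMIs in all, so the depth limit left out nearly as many KO cells as it kept. Of all barcodes, 45 occurred in both libraries, none of them in ciliated cells. Cebpa itself stood at 141 CPM (130 to 154) in 186 FF cells with AT2 markers and at 136 CPM (102 to 178) in the 23 KO cells with these markers, so its level does not check the genotype labels, and where its 3′ tags lie relative to the deleted part was not examined. FF and KO are used here for the libraries so labelled. All intervals are 95% intervals for counting error only, exact Poisson for levels and exact conditional binomial for ratios.

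The axoneme genes together made up 1.58% of all UMIs in FF ciliated cells (57159 UMIs) and 1.40% in KO ciliated cells (12952 UMIs). Of the 68 genes, 62 had at least 20 UMIs over both libraries in these cells, and the counts below are over those 62. The order of the genes was nearly the same in both libraries, with a Spearman's rho of 0.985 between the FF and KO levels across the 62 genes, which share cells and are not independent. The top 10 genes held 37.7% of the axoneme UMIs in FF and 37.6% in KO. Levels are not divided by gene length, since the libraries count 3′ ends.

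Among outer arm heavy chains, the motors of the outer row, Dnah5 stood highest, at 543 CPM (519 to 567) in FF and 583 (535 to 634) in KO. Dnah9, which occupies the distal part of the cilium, followed at 301 and 248 CPM, and Dnah11, its proximal counterpart, at 211 and 176 CPM. Dnah8, an outer arm chain known best from sperm tails, had only 30 and 8 UMIs (8.29 and 8.67 CPM). Dnah17, another sperm chain, had 1 UMI in FF ciliated cells and none in KO ciliated cells, where 3 counts, the limit used for a count of 0, correspond to 3.25 CPM. The motors of the airway cilium therefore stood far above the 2 sperm-type chains in both libraries.

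Of the inner arm heavy chains, Dnah12 reached 596 CPM in FF and 515 in KO, Dnah6 552 and 502, Dnah3 333 and 315, and Dnah10 173 and 226. Dnah7a, Dnah7b and Dnah7c are near-identical copies on chromosome 1, and their counts may be split unevenly between them. They stood at 139, 113 and 107 CPM in FF and at 158, 117 and 99.7 in KO. Dnah1 stood at 113 and 93.2 CPM and Dnah2 at 47.5 and 53.1, while Dnah14 had 6 and 2 UMIs. Of the smaller dynein chains, the light chain Dnali1 stood at 340 and 303 CPM and the outer arm intermediate chains Dnaic2 and Dnaic1 at 188 and 179 and at 170 and 141 CPM. Cfap298, needed in the cytoplasm to assemble the arms, stood at 542 and 497 CPM and Cfap300, with a like role, at 44.2 and 31.4.

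The radial spoke genes were led by Rsph1 (1047 and 857 CPM), the gate gene that also encodes a spoke head protein. Cfap206 (407 and 362), Rsph9 (404 and 302), Rsph4a (379 and 348) and Rsph10b (172 and 143) followed. The copies Rsph3a and Rsph3b, for a spoke stalk protein, were low, with 198 and 171 UMIs in FF (54.7 and 47.2 CPM) and 34 and 24 UMIs in KO. Rsph6a, the testis relative of Rsph4a, had no UMI in the ciliated cells of either library. In the nexin-dynein regulatory complex, the link between neighbouring doublets, Drc1 stood at 432 and 335 CPM, Drc3 at 322 and 314 and Drc7 at 193 and 143. Central pair genes were led by Cfap54 (310 and 251), Cfap69 (302 and 271), Cfap65 (258 and 311), Cfap46 (206 and 236) and Cfap74 (136 and 150). The tether genes Cfap44 (541 and 543) and Cfap43 (320 and 316), which hold an inner arm to its doublet, were close to equal in the libraries, as was Cfap100 (232 and 220), while Cfap57 stood at 156 and 138 and Cfap73 at 22.7 and 15.2.

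Proteins inside the microtubule wall were among the most abundant. Cfap126 reached 671 CPM (645 to 698) in FF and 570 (522 to 621) in KO, ahead of Cfap20 (506 and 419), Cfap53 (504 and 380), Cfap45 (450 and 412) and Cfap77 (269 and 248). The tektins, filament proteins of the doublet lumen, split in level. Tekt1 (365 and 270 CPM), Tekt4 (242 and 229) and Tekt2 (212 and 164) were abundant, Tekt3 had 57 and 9 UMIs (15.7 and 9.75 CPM), and Tekt5 had 11 and 1. Genes with no place assigned here were led by Cfap36 (405 and 371), Cfap299 (260 and 238), Cfap70 (223 and 170), Cfap58 (171 and 141) and Cfap97d2 (105 and 85.6). In ciliated cells Cfap97d1 had no UMI, and Dnah2os, an RNA read from the strand opposite Dnah2, had 3 and 1. Counts of Cfap43, Cfap299 and Rsph10b are uncertain, since the annotation has another gene on the same strand overlapping each.

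**Figure D1:**
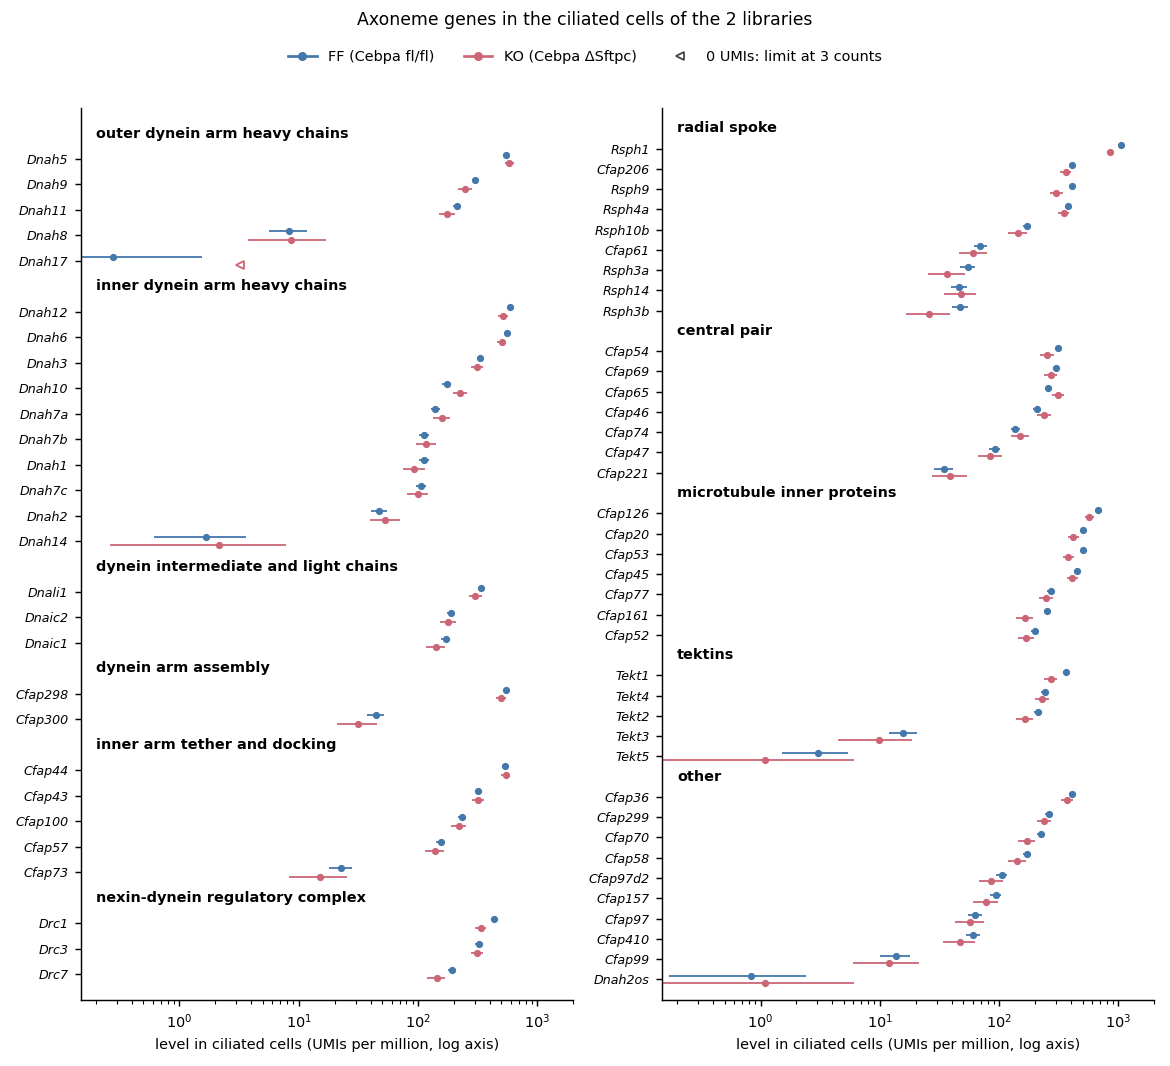
Level of each axoneme gene in ciliated cells (CPM, log axis), grouped by role, with FF in blue (210 cells) and KO in red (53 cells); bars are exact Poisson 95% intervals and open triangles the limit that a count of 0 allows (3 counts). Most genes lie between 30 and 1000 in both libraries, and Dnah8, Dnah17, Dnah14, Tekt5 and Dnah2os lie below 10.

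Between the libraries, most axoneme genes differed little in ciliated cells. Of the 62 genes, 50 (80.6%) were lower in KO than in FF by any amount, as were 62.4% of all 11182 genes with the same minimum of UMIs. The median log2 ratio was −0.17 beside −0.12 over all genes. Past a fold of 1.5, 3 of the 62 were lower in KO and none was higher, while 12.1% of all genes were lower and 8.23% were higher by that much. The 3 were Rsph3b (log2 ratio −0.86, −1.54 to −0.24), Tekt3 (−0.69, −1.89 to 0.33) and Cfap161, an inner microtubule protein (254 and 165 CPM; −0.62, −0.88 to −0.38). With 1 library per genotype, no test says whether either share differs from that of all genes.

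The interval of the ratio lay below 0 for 19 of the 62 genes (30.6%), and it lay below 0 for 12.3% of all genes. These intervals narrow with more UMIs, and the median over the 62 genes was 945 UMIs in ciliated cells of both libraries against 135 over all genes, so the shares are not set against each other. The 19 were Rsph1, Rsph9, Rsph3a and Rsph3b of the spokes, Cfap126, Cfap20, Cfap53 and Cfap161 of the inner proteins, Dnah9, Dnah11, Dnah12 and Dnaic1 of the dyneins, Drc1 and Drc7, Tekt1 and Tekt2, Cfap54, Cfap70 and Cfap58. It lay above 0 for Dnah10 (log2 ratio 0.38, 0.15 to 0.61) and Cfap65 (0.27, 0.07 to 0.46), and for 4.84% of all genes. By role, the median log2 ratio was lowest in the tektins (−0.40 over 4 genes) and the nexin-dynein regulatory complex (−0.37 over 3), and it was highest in the central pair (0.13 over 7). It was −0.10 for outer arm and −0.08 for inner arm heavy chains, −0.26 for radial spokes and −0.24 for microtubule inner proteins. Every one of these medians lay within a fold of 1.5.

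**Figure D2:**
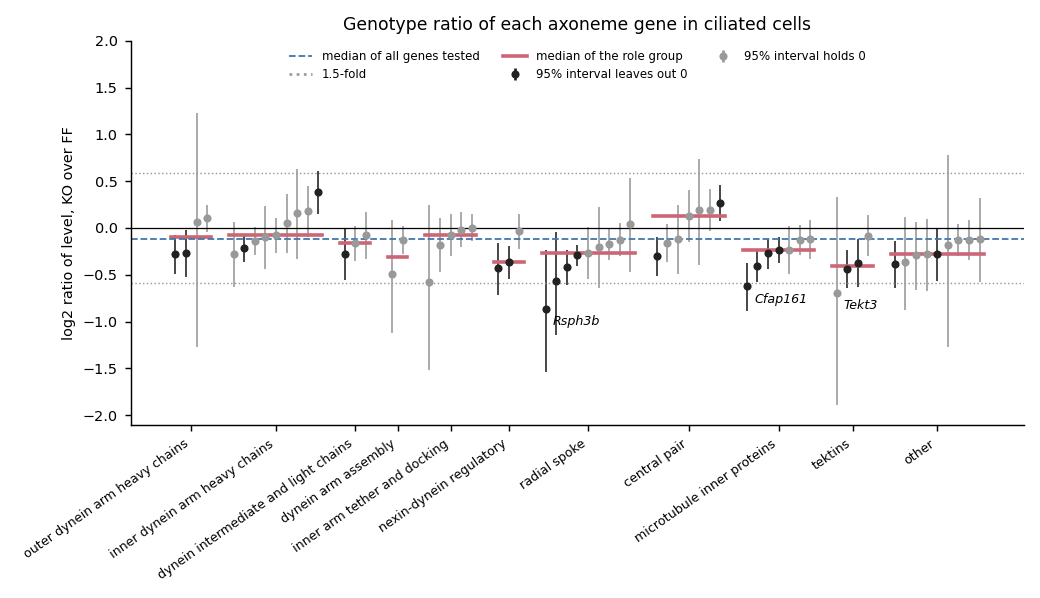
Log2 ratio of level, KO over FF, for the 62 axoneme genes with at least 20 UMIs in ciliated cells, grouped by role; bars are 95% intervals for counting error, red lines role medians, the dashed line the median of all genes tested (−0.12) and dotted lines a fold of 1.5. Only Rsph3b, Tekt3 and Cfap161 lie outside the dotted lines.

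A lone KO cell moved these ratios. It held 102977 UMIs, 11.2% of all UMIs of the KO ciliated cells, and was rich in secretoglobins, the secretory proteins of club cells, while only 0.302% of its UMIs came from axoneme genes. It had 148 marker UMIs, and the secretory list made up 7.63% of the UMIs of KO ciliated cells with it and 0.731% without it, beside 1.02% in FF. Without it the ratio of the summed axoneme level was −0.03 in place of −0.17 (−0.20 to −0.14), the median over genes was −0.05, and Rsph3b was the 1 gene still lower by 1.5-fold. How many of the 19 genes named above keep an interval below 0 without this cell is not given. Leaving this cell out was an alternative added after seeing the data. The ratio was further from 0 as a mean of single-cell CPM (−0.35, with 8 genes lower by 1.5-fold) and after thinning to 3000 UMIs per cell (−0.30, with 10 lower). The share of all genes past that fold is not given for these settings, so the counts are not read as a trait of axoneme genes. Rsph3b stood beyond that fold under every alternative choice of cells or totals that was tried. These alternatives reuse many of the same cells and are not independent. In KO the gene had only 24 UMIs, in 16 ciliated cells, and counts may be split unevenly between it and its copy Rsph3a.

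The share of a cell's UMIs that came from axoneme genes varied more among KO cells. The lowest, median and highest values were 0.413%, 1.62% and 2.56% in FF and 0.113%, 1.47% and 2.44% in KO. The medians were close, but 20 of 53 KO cells (37.7%) lay under 1% against 12 of 210 FF cells (5.71%). These 20 KO cells were shallow, with a median of 5459.5 UMIs and 22 marker UMIs, where the other 33 had medians of 20511 and 178. The 12 FF cells under 1% were not shallow, with a median of 19322 UMIs. In the 20 KO cells the median share of endothelial list UMIs was 0.461% against 0.0259% in the other 33, and that of erythroid list UMIs 0.335% against 0.00402%. In the 12 FF cells these medians were 0.0335% and 0%. The part of doublets and of free RNA in these low shares was not tested. With all cells that held 10 or more endothelial or AT2 list UMIs left out, 167 FF and 31 KO cells remained and the summed ratio turned to 0.06, with Dnah10 higher by 1.5-fold (log2 ratio 0.80) and Rsph3b lower (−1.29).

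**Figure D3:**
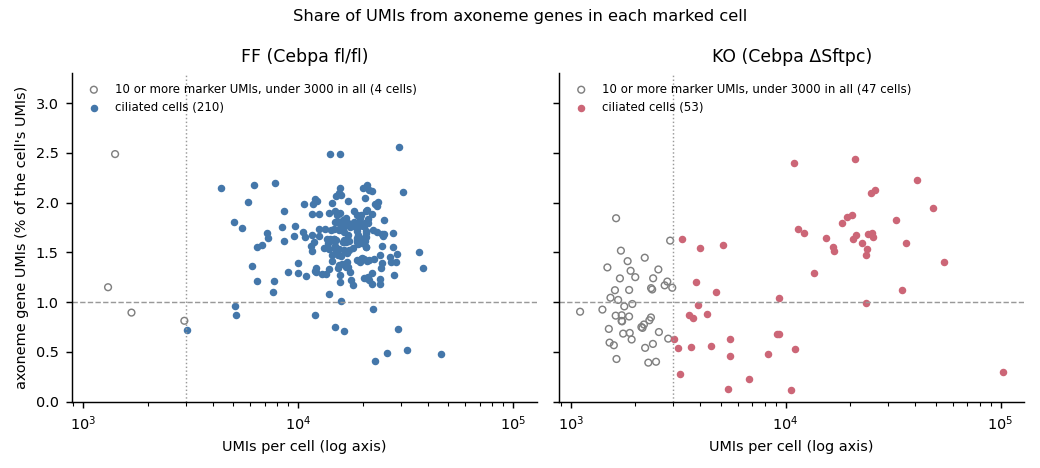
Share of a cell's UMIs from axoneme genes (%) against its UMIs (log axis), with filled points for ciliated cells and open points for cells with 10 or more marker UMIs but fewer than 3000 in all. FF cells gather between 1% and 2.5%, while KO cells spread down to 0.113% and include the deepest cell at 102977 UMIs.

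The number of axoneme genes seen per cell followed depth. A median of 52 genes was detected in an FF ciliated cell and 49 in a KO cell, with a highest value of 60 in both. After every cell was thinned to 3000 UMIs the medians were 29 and 25, so the KO median stayed lower at equal depth. At that depth Rsph1 was seen in 91.0% of FF and 81.1% of KO cells, Cfap126 in 82.9% and 75.5%, and Dnah5 in 70.5% and 60.4%. These genes are examples, given without intervals and without a share over all genes, and Rsph1 is a gate gene. After thinning, the FF and KO intervals lay apart for 3 axoneme genes. The KO cells here include the 20 with under 1% axoneme UMIs described above, and their part in the lower median was not tested.

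Genes of the pathway outside the name rule gave like ratios. In a list of dynein assembly factors, docking proteins and molecular rulers, 16 of 18 genes had enough UMIs, and their median log2 ratio was −0.19 with none past 1.5-fold. It was led by Ccdc39, the ruler that sets the axonemal repeat (753 and 661 CPM), Gas8 (269 and 211), Ccdc40 (263 and 262) and Lrrc6 (211 and 171). For 17 central pair and inner proteins the median was −0.23, with none past that fold and with Spag17 (621 and 553), Ak7 (619 and 528), Enkur (519 and 374) and Pifo (515 and 405) on top. For 22 genes of intraflagellar transport, which carries cargo along the cilium, the median was −0.21, with Ttc21b higher by more than 1.5-fold from 38 and 16 UMIs. Among 8 ciliogenesis regulators the median was −0.20, with Ccno lower (38 and 6 UMIs) and Plk4 higher (34 and 14 UMIs) past that fold. The log2 ratio intervals of Ttc21b (−0.22 to 1.60), Ccno (−2.22 to 0.56) and Plk4 (−0.32 to 1.63) all held 0. Foxj1, the gate gene that drives the motile cilium program, stood at 711 and 687 CPM, Myb at 204 and 186, Rfx3 at 103 and 97.5 and Rfx2 at 69.6 and 56.3.

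RFX factors bind paired motifs known as the X-box, and Foxj1 binds a forkhead motif, so these letters were looked for in the 250 bases upstream of each gene's start (RefSeq, GRCm38.p6, both strands, overlaps allowed). A window was at hand for 56 of the 68 genes. The motif GTTGCC was found in 17 of them (30.4%) and in 11.8% of the windows of all 27025 genes. The pair GTNNCC followed after 0 to 3 bases by GGNNAC was found in 7 (12.5%) and in 3.66% of all. Of the 56 genes with a window, 46 were at least 10-fold higher in ciliated cells in both libraries and had at least 20 UMIs there. The 7 were among these 46 (15.2%, 6.34 to 28.9), so most of the 46 held no pair. None was among the other 10 (0%, 0 to 30.8). GTTGCC was found in 16 of the 46 and 1 of the 10. The forkhead motif GTAAACA was found in 4 (7.14%) and in 3.54% of all, 1 of them among the 46 genes and 3 among the other 10. For every motif the Clopper-Pearson intervals of the 46 and of the 10 genes overlapped, for GTAAACA only in part (0.055% to 11.5% and 6.67% to 65.2%). An overlap of intervals is not a test of equal shares, and no such test was made. Windows that hold the pair are shown for the 3 genes with most UMIs among the 7, with the pair in capitals, beside those of Dnah8 and Tekt5, which hold no pair and whose levels outside ciliated cells are described below. They lie at chr1:171122795-171123044 (Cfap126, plus strand), chr16:90934850-90935099 (Cfap298, minus), chr4:34730207-34730456 (Cfap206, minus), chr17:30626686-30626935 (Dnah8, plus) and chr16:10395456-10395705 (Tekt5, minus).
Cfap126: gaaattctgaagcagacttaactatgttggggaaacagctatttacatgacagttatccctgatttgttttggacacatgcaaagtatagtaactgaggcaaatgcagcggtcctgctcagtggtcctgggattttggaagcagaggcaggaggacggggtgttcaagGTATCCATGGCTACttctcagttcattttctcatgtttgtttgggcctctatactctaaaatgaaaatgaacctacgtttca
Cfap298: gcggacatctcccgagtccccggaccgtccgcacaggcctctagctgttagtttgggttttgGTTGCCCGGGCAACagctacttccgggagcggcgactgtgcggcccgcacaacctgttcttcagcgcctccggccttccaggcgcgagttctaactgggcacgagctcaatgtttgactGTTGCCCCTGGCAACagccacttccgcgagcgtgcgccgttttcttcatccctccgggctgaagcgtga
Cfap206: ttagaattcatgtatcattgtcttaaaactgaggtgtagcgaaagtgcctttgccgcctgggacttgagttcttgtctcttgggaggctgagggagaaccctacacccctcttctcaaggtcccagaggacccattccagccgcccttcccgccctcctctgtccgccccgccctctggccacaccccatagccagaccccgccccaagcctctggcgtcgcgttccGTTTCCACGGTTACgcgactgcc
Dnah8: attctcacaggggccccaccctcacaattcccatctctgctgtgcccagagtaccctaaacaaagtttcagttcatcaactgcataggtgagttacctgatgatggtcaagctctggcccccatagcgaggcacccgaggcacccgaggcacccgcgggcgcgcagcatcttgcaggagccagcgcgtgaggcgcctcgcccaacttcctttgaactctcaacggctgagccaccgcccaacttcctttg
Tekt5: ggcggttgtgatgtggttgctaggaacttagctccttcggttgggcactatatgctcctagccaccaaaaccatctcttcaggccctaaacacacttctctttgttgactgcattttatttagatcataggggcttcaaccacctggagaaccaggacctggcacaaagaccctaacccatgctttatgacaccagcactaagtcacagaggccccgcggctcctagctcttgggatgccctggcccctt
The pair began 82 bases upstream of the start in Cfap126, 188 in Cfap298, where a further pair follows, and 23 in Cfap206. A match of letters is not a bound site, and binding was not measured here.

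In all other cells, the axoneme genes summed to 359 CPM in FF and 333 CPM in KO (log2 ratio −0.11, −0.13 to −0.08). This ratio turned to 0.30 as a mean of single-cell CPM, and it was −0.39 in cells with 0 marker UMIs, an alternative added after seeing the data. The other cells include the 4 FF and 47 KO cells with 10 or more marker UMIs but fewer than 3000 UMIs in all. These held 0.381% of the axoneme UMIs of other cells in FF and 4.33% in KO, so they add more to the KO level outside ciliated cells. The level in ciliated cells over that in other cells had a median of 204-fold in FF and 131-fold in KO across the 62 genes, and 56 of 62 were at least 10-fold higher in ciliated cells in each library. The minimum of 20 UMIs was counted in ciliated cells themselves. It left out 6 genes with few UMIs there, among them Dnah2os and Tekt5, so the median and the share are set in part by this choice. No such median or share is given for all genes, so these values are not set against genes in general. In cells with endothelial markers (5720 FF and 3623 KO cells of at least 3000 UMIs), the median gene stood at 0.399% of its ciliated level in FF and 0.288% in KO. Free RNA of ciliated cells gives UMIs in other droplets too, and its part in these levels was not tested. A few genes stood far above that level.

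The 8 genes with the lowest ratio of ciliated to other cells, among those with at least 20 UMIs in ciliated cells, were Dnah8, Cfap97, Tekt3, Cfap410, Cfap20, Cfap36, Rsph3b and Rsph3a. Dnah8 was lower in ciliated than in other cells in both libraries, with 8.29 against 52.3 CPM in FF and 8.67 against 32.2 in KO. Cfap97 was 1.32-fold higher in ciliated cells in FF (62.4 against 47.3 CPM) and 1.56-fold higher in KO (57.4 against 36.8). Cfap20 (506 against 70.8 and 419 against 54.8), Cfap36 (405 against 49.2 and 371 against 40.8) and Cfap410 (59.9 against 9.31 and 46.6 against 8.22) were higher in ciliated cells but present widely, and both Cfap410 and Cfap20 are also known from cilia that do not move. Tekt3 was 4.52-fold and 3.16-fold higher in ciliated cells. Rsph3b (2.78 and 2.05 CPM in other cells) and Rsph3a (2.49 and 2.68 CPM) were over 10-fold higher in ciliated cells in both libraries. Below that minimum, Dnah2os was also higher outside ciliated cells, at 9.51 and 9.81 CPM (620 and 623 UMIs) against 0.829 and 1.08 CPM within them. Tekt5 stood at 4.89 and 3.62 CPM outside ciliated cells (319 and 230 UMIs). Within them it stood at 3.04 CPM (1.52 to 5.44) in FF and 1.08 CPM (0.027 to 6.04) in KO. Both intervals hold the level outside, so counting error does not set these Tekt5 levels apart.

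**Figure D4:**
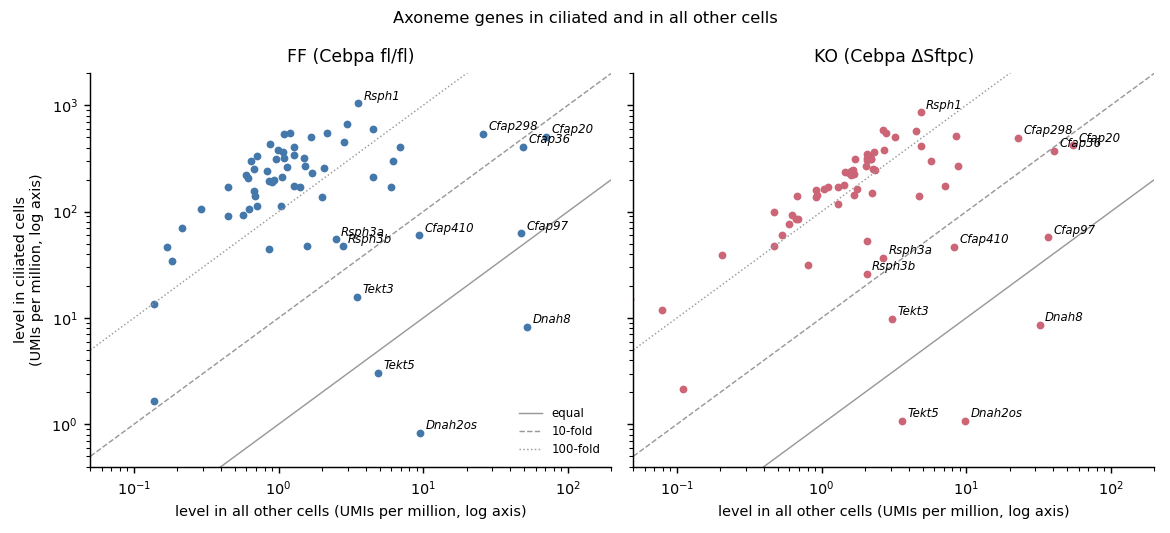
Level of each axoneme gene in ciliated cells against its level in all other cells (CPM, both axes log) in FF and KO, with lines for equal levels, 10-fold and 100-fold. Dnah8, Tekt5 and Dnah2os lie below the line of equal levels in both libraries, and Cfap97 just above it. For Tekt5 the interval of the ciliated level holds the level in other cells.

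Most of the Dnah8 UMIs outside ciliated cells came from endothelial-marker cells, which held 2851 of them in FF (79.8 CPM) and 1422 in KO (51.9 CPM), against 6.28 and 9.96 CPM in the sum of the other marker-defined cells. Among those, T or NK cells stood at 52.4 CPM (28.6 to 87.9) in 33 FF cells and 35.6 CPM (28.9 to 43.3) in 312 KO cells. In 16 FF platelet-marker cells the level was 48.1 CPM (13.1 to 123) from 4 UMIs, and the 27 KO cells had none. Dnah2os stood at 15.3 and 17.2 CPM in endothelial-marker cells and at 0.641 and 1.07 in the others. The radial spoke gene Rsph9 stood out elsewhere, at 17.8 and 16.8 CPM in fibroblast-marker cells and 26.7 and 23.4 CPM in smooth muscle or pericyte-marker cells, against 2.94 and 2.52 CPM in endothelial-marker cells. It was not particular to these classes. In cells with type 1 alveolar markers it stood at 15.4 CPM (6.18 to 31.7) from 7 UMIs in FF and 36.2 CPM (13.3 to 78.9) from 6 UMIs in KO. Dnah7b was at 4.91 and 3.95 CPM in fibroblast-marker cells and 0.459 and 0.488 CPM in the sum of the rest. Within that rest, smooth muscle or pericyte-marker cells were nearly as high as fibroblast-marker cells, at 3.46 CPM (7 UMIs) and 3.69 CPM (3 UMIs). Tekt5 reached 26.4 CPM (12 UMIs) and 24.2 CPM (4 UMIs) in the 45 and 18 cells with type 1 alveolar markers.

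The endothelial-marker cells were then split by 2 pairs of capillary genes, a choice made after seeing the data. Cells with at least 3 UMIs of Ednrb and Apln together, and at least 3 times those of Gpihbp1 and Aplnr, formed the Ednrb side (1142 FF and 829 KO cells), and the reverse formed the Gpihbp1 side (3665 and 2168 cells). In the mouse lung these pairs are known to mark different kinds of capillary endothelium. Car4, used in neither pair, stood at 3876 and 2892 CPM on the Ednrb side and at 223 and 216 CPM on the Gpihbp1 side.

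Dnah8 lay on the Gpihbp1 side, with 2544 UMIs (118 CPM) against 39 on the Ednrb side (4.63 CPM) in FF and 1208 (79.8 CPM) against 29 (3.96 CPM) in KO. That is 25.5-fold higher in FF and 20.2-fold in KO, and 42.6% of FF and 36.9% of KO cells of the Gpihbp1 side held a UMI against 2.98% and 3.02% of the other side, whose cells were deeper (median 6982 and 8328 UMIs against 5276 and 6195). Dnah2os (4.33-fold and 5.66-fold) and, from few UMIs, Cfap77 (58 and 4 in FF, 29 and 1 in KO) were also higher there. Dnah2, whose locus Dnah2os overlaps on the opposite strand, stood at 2.55 and 2.18 CPM on the Gpihbp1 side, from 55 and 33 UMIs, fewer than the 432 and 374 UMIs of Dnah2os. Within the Gpihbp1 side, Dnah8 was lower in KO than in FF by a log2 ratio of −0.56 (−0.66 to −0.46), and Dnah2os was higher by 0.30 (0.10 to 0.51).

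Other axoneme genes lay on the Ednrb side. Tekt5 had 222 UMIs there (26.3 CPM) against 16 (0.742 CPM) in FF and 144 (19.7 CPM) against 5 (0.330 CPM) in KO, a fold of 35.5 and 59.5. Tekt3 was 28.9-fold and 33.4-fold higher, Dnah11 18.8-fold and 19.7-fold, Dnah12 5.31-fold and 5.87-fold, and Cfap69 5.30-fold and 5.28-fold. Tekt3 stood at 18.7 CPM on that side in FF and 15.4 in KO, as high as in the ciliated cells (15.7 and 9.75). Each of these genes had the same direction in both libraries. Cfap36 was 1.68-fold and 2.02-fold higher on the Ednrb side, and Cfap97, Cfap20, Cfap298 and Cfap410 had intervals that held a ratio of 1 in both libraries. Cfap36, Cfap20 and Cfap97 were the most abundant of these genes on that side, at 75.2, 70.8 and 50.7 CPM in FF.

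Dnaic1 was 14.2-fold and 13.8-fold higher on the Ednrb side, but it overlaps Enho on the opposite strand. Enho stood at 346 and 287 CPM on that side and at 23.6 and 19.4 on the other, so the Dnaic1 counts there cannot be told apart from reads of Enho unless strand was used in the counting, which is not stated in the sources used here. The gene opposite Dnah11, Cdca7l, had the reverse pattern in FF, with 15.7 CPM on the Ednrb side and 26.8 on the Gpihbp1 side, while in KO it stood at 10.7 and 11.8 CPM. The one opposite Dnah8, 1700097N02Rik, had at most 8 UMIs on a side. The ciliated gate genes were near equal on the sides in FF, where the interval of each of the 6 held a ratio of 1. On the Ednrb and Gpihbp1 side of FF, Foxj1 stood at 2.14 and 2.74 CPM, Tmem212 at 4.63 and 4.40 CPM and Ccdc153 at 6.05 and 6.86 CPM. In KO, Dynlrb2 was 2.49-fold higher on the Gpihbp1 side, from 36 and 7 UMIs (log2 ratio of Ednrb over Gpihbp1 −1.32, −2.73 to −0.13). The intervals of the other gate genes held a ratio of 1 in KO too. No gate gene had a side fold near those of Dnah8, Tekt5 and Tekt3. The part of free RNA in the side differences was not tested.

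**Figure D5:**
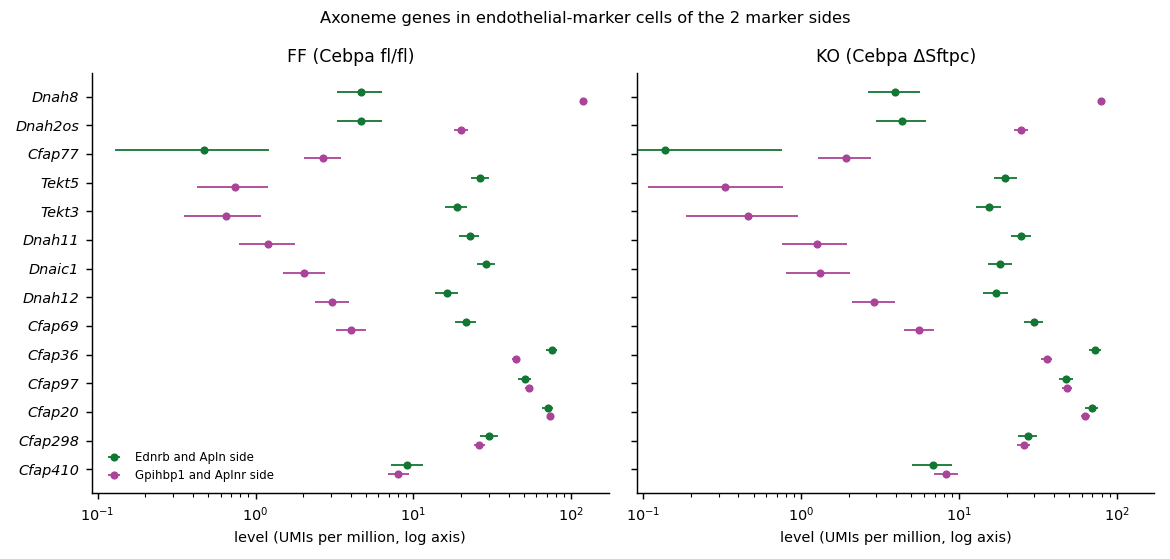
Level of 14 axoneme genes in endothelial-marker cells (CPM, log axis) on the Ednrb and Apln side (green) and on the Gpihbp1 and Aplnr side (purple), in FF and KO, with exact Poisson 95% intervals. Dnah8, Dnah2os and Cfap77 lie higher on the Gpihbp1 side in both libraries, Tekt5, Tekt3, Dnah11, Dnaic1, Dnah12 and Cfap69 on the Ednrb side.

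Summed over all other cells, Dnah12 (4.51 and 8.50 CPM; log2 ratio 0.91), Dnah11 (4.46 and 7.13; 0.68) and Cfap69 (6.18 and 8.75; 0.50) were higher in KO, and Dnah8 was lower (−0.70). On the Ednrb side alone the ratios were 0.07 (−0.29 to 0.43) for Dnah12, 0.13 (−0.18 to 0.43) for Dnah11 and 0.47 (0.18 to 0.77) for Cfap69. Besides the 4 FF and 47 KO cells with 10 or more marker UMIs, 3274 FF and 6979 KO cells held fewer than 3000 UMIs. In these 3274 and 6979 cells Dnah12 stood at 5.09 and 18.7 CPM and Dnah11 at 1.70 and 10.4 CPM. The KO macrophage or monocyte-marker cells (510) held 60 UMIs of Dnah11 (8.40 CPM) and 39 of Dnah12 (5.46 CPM), and only 27 such cells were in FF. Those FF cells held 4 UMIs of Dnah12 (18.0 CPM, 4.89 to 46.0) and 0 of Dnah11 (interval up to 16.6 CPM), so their levels were not shown to be lower. How much the different mix of cells adds to these ratios was not tested.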

How the data were processed

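The 2 libraries (10x 3′ chemistry) were deposited by the authors as raw, unnormalized UMI counts, which Cell Ranger had produced against mm10. The file headers name version 5.0.0 and the submitters' processing notes version 6.1.1. Whether strand was used in the counting is not given in the sources used here, so counts of overlapping genes are uncertain. The filter of the study's methods was applied: cells under 200 genes or over 20% mitochondrial counts were dropped. The paper reports 11721 and 13373 cells after its own filter, equal to the deposited barcodes, and the filter here kept 11487 and 13238. The cells used here are therefore not the same set as the paper's. Doublets were not removed. Counts were summed over cells per library and divided by all UMIs of these cells (CPM). With 1 library per genotype no test was made, and depth enters through exact Poisson, Clopper-Pearson and conditional binomial 95% intervals. Each count was floored at 3 in a ratio. Ratios need at least 20 UMIs over both libraries, and a fold of 1.5 stands in place of a test. Other cells of at least 3000 UMIs were sorted by marker lists, taking the list with the highest score when it reached 2 times the next. The thinned values took 3000 UMIs per cell. Named genes are up to 5 per role with most UMIs, those whose ratio interval leaves out 0 on the log2 scale, the 8 with the lowest ratio of ciliated to other cells, those with 0 to 3 UMIs, and near-identical copies. The genes of the sides, of the cell classes and of the 1.5-fold counts were named after their values were seen. The gene set, lists and roles were chosen with earlier results of these data known. Promoter windows are from RefSeq (GRCm38.p6). The ratio step was tested on simulated data. Python 3.11.15, numpy 2.4.6, pandas 2.3.3, scipy 1.17.1 and matplotlib 3.10.9 were used.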

Additional observations from a re-analysis of the deposited data

How the results depend on the processing

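With 1 library per genotype, neither library spread nor a difference between mice can be measured, and the 53 KO ciliated cells, 47 more lying under the depth limit, bound what can be seen. No paired analysis was possible because each genotype has 1 library and the barcodes do not name mice. The summed log2 ratio in ciliated cells (−0.17) was −0.20 with at least 5 marker UMIs, −0.11 with at least 20, −0.21 with no minimum of total UMIs, −0.14 with a minimum raised from 3000 to 5000 UMIs, −0.20 under a stricter cell filter (500 genes, 10% mitochondrial counts), −0.35 as a mean of single-cell CPM, −0.068 with hemoglobin and secretoglobin UMIs out of the totals, −0.045 without cells of 5% or more secretoglobin UMIs, −0.12 with free RNA subtracted, −0.30 after thinning and −0.035 without the deepest KO cell. It turned to 0.059 without cells of 10 or more endothelial or AT2 list UMIs. The median over genes (−0.17) was −0.37 as a mean of single-cell CPM, −0.38 after thinning and 0.033 without the endothelial or AT2-marked cells. The cause of these shifts was not tested. The count of genes lower by 1.5-fold (3) was 5 with at least 5 marker UMIs, 5 with no minimum of total UMIs, 8 as a mean of single-cell CPM, 10 after thinning, 1 without the secretoglobin-rich, the endothelial or AT2-marked cells or the deepest cell, and 0 at 2-fold. The count of genes higher (0) was 1 without the endothelial or AT2-marked cells and 1 with genes of at least 1 UMI (Dnah14). The share of all genes past 1.5-fold is given only for the main settings, so these changes in count are not read as particular to axoneme genes. In all other cells the summed ratio (−0.11) was −0.16 with no minimum of total UMIs, 0.30 as a mean of single-cell CPM, −0.16 without low-depth marked cells and −0.39 in cells with 0 marker UMIs. The alternatives on the deepest cell, the low-depth marked cells and the cells with 0 marker UMIs were chosen after seeing the data, as were those on the endothelial sides, where Dnah8 and Tekt5 kept their direction with cells of at least 1000 UMIs and with at least 5 UMIs of a side (log2 4.08 to 4.73 and 5.26 to 5.74).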
